A study of Mus musculus with 2 samples.

Results

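Neuropeptide receptors are G protein-coupled receptors through which secreted peptides act on neurons and endocrine cells. In the paraventricular nucleus of the hypothalamus (PVN) they receive the peptides that set food intake, stress hormone release and fluid balance, and several of them answer peptides that PVN neurons themselves secrete. The 53 genes described here were chosen by name, as receptors for peptides of 13 families, from the 21887 protein-coding genes of the mouse RefSeq table. All 53 were found in that table, with positions in build mm10 (GRCm38). They leave out Mc4r, the melanocortin receptor whose promoter the study set out to examine.

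The data are peak lists from CUT&RUN, an assay in which an antibody tethers a nuclease to a chromatin protein in permeabilised nuclei and the released DNA is sequenced. Both libraries came from PVN nuclei of wild-type (WT) mice with the cell type labelled as neurons, and no other treatment is given in the labels. One used an antibody to Otp (Orthopedia), a homeodomain protein on which PVN neurons depend for their development, and the other used IgG, an antibody with no chromatin target. Each antibody has a single library, so differences between Otp and IgG have no replicates behind them and could not be tested. The extraction protocol describes no sorting of neuronal nuclei. A peak list does not measure expression. An Otp region lay within 1 kb of an end of 3 of 7 marker genes for PVN neurons and 2 of 5 for neurons in general. It did so at 1 of 5 for astrocytes, 1 of 5 for oligodendrocytes and 0 of 5 for microglia. The share over all protein-coding genes was 27.2%, and counts this small do not show which cells the library holds.

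The Otp list held 11379 regions and the IgG list 291. A region is described by its summit, its fold enrichment (tags plus 1 over local background plus 1 at the summit, as the authors' caller gave it) and its pileup, the number of tags at the summit, worked out from the deposited fold and −log10 p. The lowest local background that 3 or more regions shared was 0.512 tags for Otp and 0.0873 for IgG, a 5.86-fold difference, and these were used as the backgrounds of the libraries. The total depth of either library is unknown, and intervals of pileups cover counting error only.

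Otp regions were rare at the ends of the receptor genes. Of the 53 genes, 2 had an Otp region with its summit within 1 kb of either end (3.77%), against 27.2% of all protein-coding genes. The 2 genes were Oxtr, the oxytocin receptor, and Sstr4, a somatostatin receptor. Genes of the same decile of length had a region in 28.8% of cases, which corresponds to 15.3 of 53 genes. With 1 library these shares are a description of the peak list and carry no test. The 51 other receptor genes had no region at an end. In 11 of the 13 families no member had one, which follows from the count of 2 genes and is not a separate result. The closest outside the 1 kb window were Npffr1 (4229 bp), Gipr (5676 bp) and Gnrhr (7874 bp).

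The IgG list had no region within 1 kb of an end of any of the 53 genes and none within 100 kb. Of all protein-coding genes, 0.379% had an IgG region at an end and 2.85% had one within 100 kb. At the shares of genes of the same length, 0.186 and 1.59 of the 53 genes would have one, so a count of 0 lies near the background. The IgG region nearest to a receptor gene lay 196490 bp from Oprl1.

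**Figure D1:**
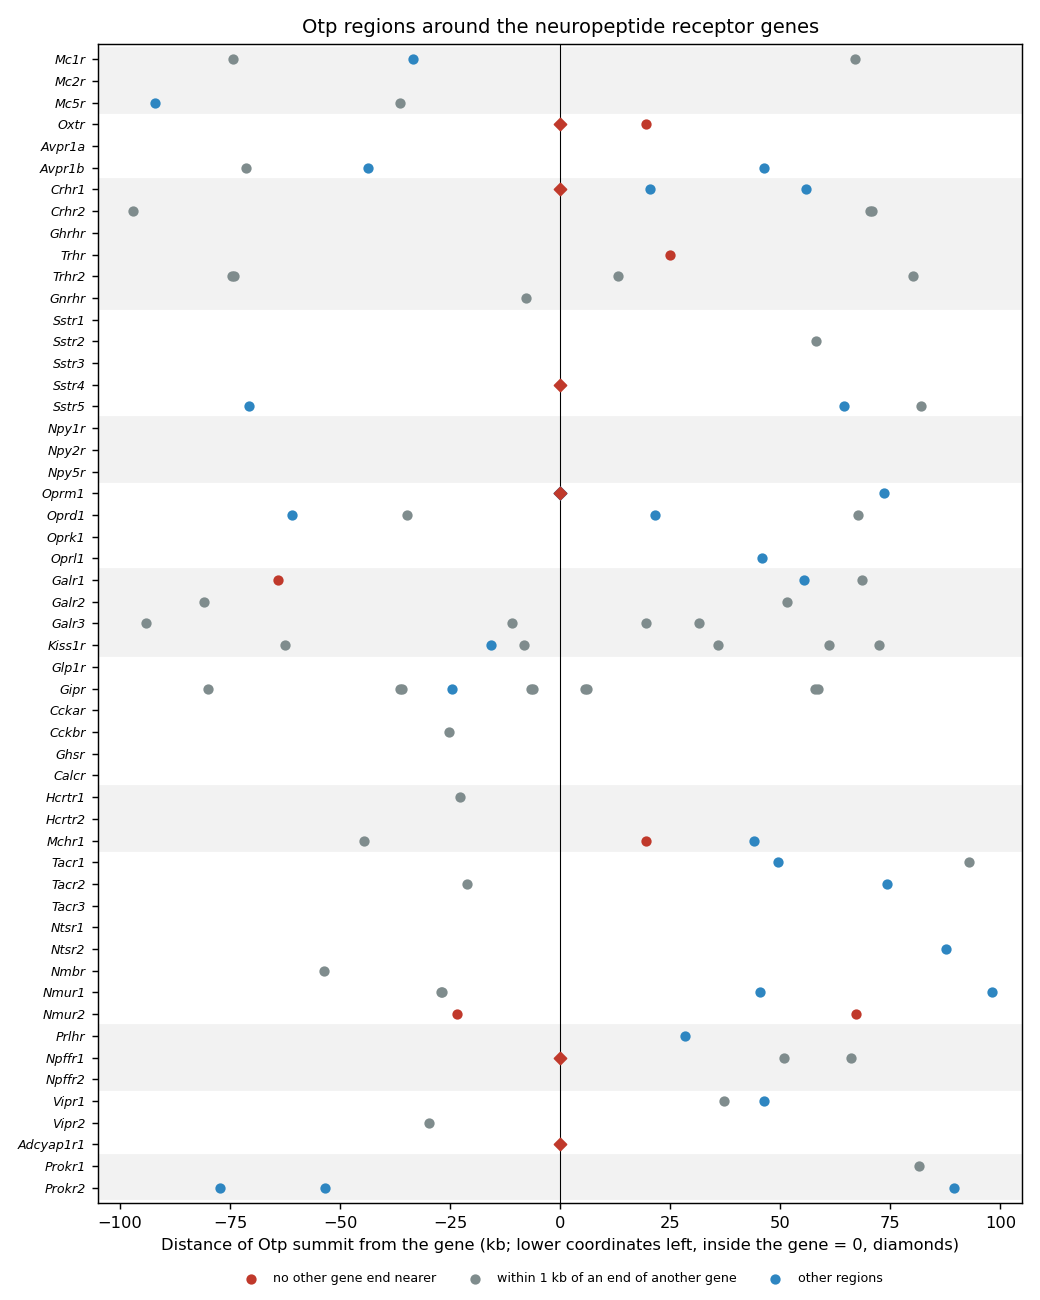
Each row is 1 receptor gene, with families shaded in turn. Each symbol is an Otp summit within 100 kb of an end or inside the gene, plotted by its distance in kb from the gene. Lower coordinates are to the left, and summits inside the gene are diamonds at 0. They include 1 inside Oprm1 that lies 121521 bp from the nearer end. Red symbols have no end of another protein-coding gene nearer, grey symbols lie within 1 kb of an end of another gene and blue symbols are the remaining regions. Symbols inside a gene overlie each other at 0. The 17 empty rows are genes with no Otp region within 100 kb.

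Oxtr (gene ID 18430, chromosome 6, positions 112473683 to 112491035, reverse strand) mediates the actions of oxytocin on social behaviour, lactation and feeding. Its Otp region covered positions 112490990 to 112491122, across the upper end of the gene, with the summit 13 bp inside that end. The fold enrichment was 6.65, the −log10 q was 6.26, and the pileup was 10 tags (95% Poisson interval 4.80 to 18.4). On the reverse strand the upper end is the 5′ end of the gene, but the RefSeq start used for its promoter sequence lies further in. RefSeq lists a curated and a predicted transcript for Oxtr, the tables used here do not say which of them reaches the upper end, and which start PVN neurons use was not tested. The summit was 1197 bp before that RefSeq start, so Oxtr counts as having a region within 1 kb by the end of the gene and not by the start. A second Otp region, of 12 tags, lay 19545 bp from the same end, and no other protein-coding gene end was nearer to it.

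Sstr4 (gene ID 20608, chromosome 2, positions 148395377 to 148396764, forward strand) is one of the 5 receptors for the inhibitory peptide somatostatin. Its Otp region covered positions 148395867 to 148395960, inside the gene, with the summit 526 bp after the start. The fold enrichment was 7.28 and the −log10 q was 7.30. The pileup was again 10 tags (4.80 to 18.4). By −log10 q the region ranked 6012 of 11379 and that of Oxtr ranked 7041, so both stood below the middle. After scaling by the 2 backgrounds, 10 tags in the Otp library corresponded to 1.71 tags in the IgG library. The weakest IgG region with a pileup had 4 tags, so a difference from IgG at Oxtr or Sstr4 was not detectable at this depth.

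Counts were also made from the 5′ start in place of both ends. RefSeq promoter windows of GRCm38.p6, from 250 bases before to 50 bases after a start, were matched to 40 of the 53 receptor genes, with 49 windows. An Otp summit lay within 1 kb of a start in 1 of these 40 genes (Sstr4), against 29.5% of the 17492 protein-coding genes with a window. Within 2 kb there were 3, with Oxtr and Oprm1 added, against 30.6%. No Otp region overlapped any of the 49 receptor windows, whereas 24.3% of the 21263 windows of protein-coding genes were overlapped by one.

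The windows of the receptor genes were about as rich in CpG as those of other genes. Across all protein-coding genes, the share with an Otp region at an end was higher where the window held more CpG: it was 2.53% in genes with at most 3 CpG, 10.2% in the next class up to 8, 36.4% up to 18, 49.0% up to 26 and 45.5% beyond. The receptor genes had a median of 12.5 CpG (range 2 to 43) and all genes a median of 13. The median GC content was 58% in the receptor windows and 56.3% in all. Of the 40 receptor genes, 2 had a region at an end, against 11.8 expected from the CpG classes and 12.1 with gene length taken into account as well. In the class from 8.5 to 18 CpG, 0 of 16 receptor genes had a region, and among the 10 receptor genes of the top 2 classes only Oxtr and Sstr4 had one.

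**Figure D2:**
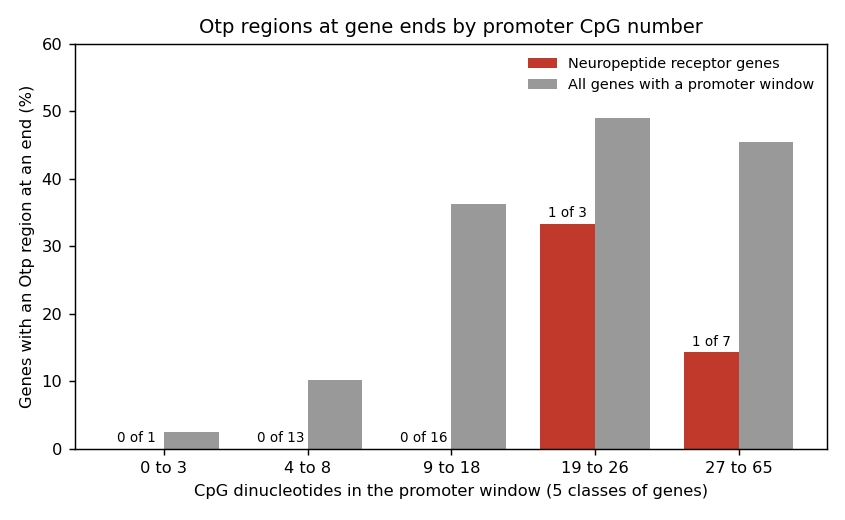
Genes are divided into 5 classes by the number of CpG dinucleotides in the promoter window (x axis, median over windows where a gene has several). Bars give the percentage of genes with an Otp region within 1 kb of an end, red for the receptor genes with their counts and grey for all genes with a window. The red bars are at 0 in the lower 3 classes, and the grey bars go from 2.53% in the lowest class to 49.0% in the fourth.

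The upstream stretches of 5 genes show what these windows look like. Each gives the 250 bases before the RefSeq start, 5′ to 3′ on the gene's strand, with CpG dinucleotides in capitals (RefSeq, GRCm38.p6). Sstr4 and Oxtr are the receptor genes with a region at an end, at chr2:148395127-148395376 (forward strand, 28 CpG) and chr6:112489826-112490075 (reverse strand, 12 CpG). Oprd1, the delta opioid receptor, had the most CpG of the receptor windows and its nearest Otp summit 21440 bp before the start (chr4:132144487-132144736, reverse strand, 34 CpG). Npy1r, a receptor of neuropeptide Y, had no Otp summit within 100 kb (chr8:66697172-66697421, forward strand, 10 CpG). Gna12, a G protein alpha subunit and not a receptor, is set beside them because an Otp region of 51 tags covered 226 of its 250 bases (chr5:140830432-140830681, reverse strand, 20 CpG).
Sstr4: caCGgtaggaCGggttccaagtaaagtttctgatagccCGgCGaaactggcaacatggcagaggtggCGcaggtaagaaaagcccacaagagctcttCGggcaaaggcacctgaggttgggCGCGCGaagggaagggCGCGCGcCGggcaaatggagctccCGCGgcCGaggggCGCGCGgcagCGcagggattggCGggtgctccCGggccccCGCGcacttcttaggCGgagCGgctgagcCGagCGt
Oxtr: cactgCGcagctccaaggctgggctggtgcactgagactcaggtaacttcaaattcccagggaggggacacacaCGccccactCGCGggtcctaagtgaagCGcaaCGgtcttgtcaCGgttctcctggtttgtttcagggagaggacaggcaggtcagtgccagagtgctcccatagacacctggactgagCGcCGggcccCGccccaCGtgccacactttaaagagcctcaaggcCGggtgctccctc
Oprd1: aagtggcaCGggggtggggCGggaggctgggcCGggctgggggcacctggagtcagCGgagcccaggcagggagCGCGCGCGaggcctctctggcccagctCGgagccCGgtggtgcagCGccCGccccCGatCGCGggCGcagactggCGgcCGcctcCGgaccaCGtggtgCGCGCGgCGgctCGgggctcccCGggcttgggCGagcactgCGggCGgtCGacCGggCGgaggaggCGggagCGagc
Npy1r: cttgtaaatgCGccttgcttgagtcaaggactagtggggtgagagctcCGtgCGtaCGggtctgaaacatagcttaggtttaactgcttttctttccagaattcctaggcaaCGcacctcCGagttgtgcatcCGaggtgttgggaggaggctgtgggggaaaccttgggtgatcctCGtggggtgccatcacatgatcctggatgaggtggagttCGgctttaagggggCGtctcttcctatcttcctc
Gna12: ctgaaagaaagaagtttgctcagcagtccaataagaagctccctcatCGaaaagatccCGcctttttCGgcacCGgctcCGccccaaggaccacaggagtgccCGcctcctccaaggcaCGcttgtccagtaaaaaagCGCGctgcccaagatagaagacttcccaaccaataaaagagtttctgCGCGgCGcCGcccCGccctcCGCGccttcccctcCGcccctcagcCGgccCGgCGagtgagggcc
Of the 5 stretches, that of Gna12 alone was overlapped by an Otp region, and those of Sstr4 and Oprd1 held more CpG than it.

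Homeodomain factors commonly recognise a TAAT core. The palindromic motif TAATTA, which reads the same on both strands and was searched in the 300 bases of each window, was in 0 of the 49 receptor windows, against 4.53% of all windows. TAAT itself, searched on both strands and counted also within TAATTA, was in 14 of the 49 receptor windows (28.6%), against 51.8% of all windows. The receptor windows with it belonged to 12 of the 40 genes, with 3 matches each at Calcr, Gnrhr and Nmur1, and none of the 5 stretches printed above held it. At a share of 4.53% few of 49 windows would hold TAATTA, so the count of 0 lies near that share. Among all genes with a window, an Otp region was at an end in 15.9% of those with TAATTA and in 28.8% of those without it. Windows with and without these motifs were not matched for CpG number, with which the share of Otp regions varied. The part of CpG number in these differences was not tested. These are matches of letters in short windows and say nothing about sites elsewhere.

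Inside the receptor genes the Otp list held 8 regions in 6 genes (11.3%), against 18.9% of all protein-coding genes and 16.9% expected from length. Apart from Oxtr and Sstr4, these were Crhr1, Oprm1, Npffr1 and Adcyap1r1. Their pileups were low, with a median of 10 tags (8 to 12 tags, 7 with a pileup) and fold enrichments of 5.62 to 7.28. No region inside a receptor gene reached a −log10 q of 10, and the median over all nuclear Otp regions was 7.69.

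Crhr1, the main receptor for corticotropin-releasing hormone (chromosome 11, positions 104130463 to 104175523), held a region of 10 tags with its summit 25321 bp after the start. That summit also lay inside the non-coding gene Gm35469, 621 bp from its upper end. Oprm1, the mu opioid receptor (chromosome 10, positions 6758593 to 7038209), held 3 regions. The first, with a fold enrichment of 5.74 and no pileup solution, lay 31822 bp from the lower end but 1839 bp after the nearest of the gene's 3 listed starts. The other Oprm1 regions had 8 and 9 tags, and the one of 9 tags also lay inside the neighbour Ipcef1. Npffr1, a receptor for RF-amide peptides, held a region of 10 tags 4229 bp from its far end. Adcyap1r1, the receptor for the peptide PACAP (chromosome 6, positions 55451501 to 55501455), held one of 12 tags 38009 bp after the start.

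Within 100 kb of an end, 36 of the 53 receptor genes (67.9%) had at least 1 Otp region, against 74.3% of all protein-coding genes and 77.8% expected from length. Within 10 kb, 6 receptor genes had a region (11.3%), against 40.1% of all genes. Within 50 kb, 27 did (50.9%), against 62.8%. The median distance from a receptor gene to its nearest Otp summit was 49384 bp, against 22389 bp over all protein-coding genes. In 40 of the 53 genes the distance was above the median of genes of the same length decile. Receptor genes also had fewer neighbours, with a median of 2 other protein-coding genes within 100 kb against 4 over all genes. The part of this difference in the distances was not tested.

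**Figure D3:**
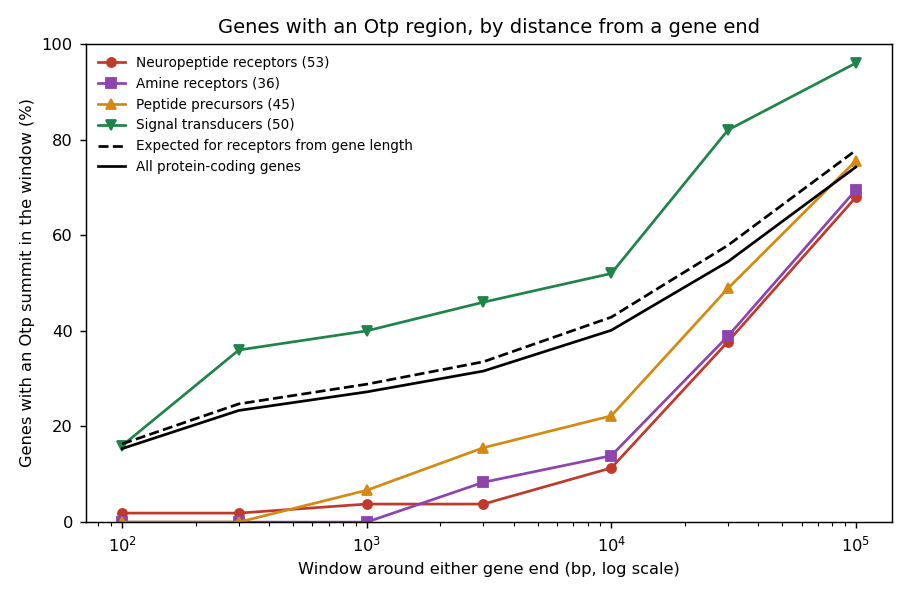
The x axis is the window around either gene end in bp (log scale) and the y axis the percentage of genes with an Otp summit in it. Coloured lines are the neuropeptide receptors, amine receptors, peptide precursors and signal transducers, the solid black line all protein-coding genes, and the dashed line the receptors' expectation from gene length. At 1 kb the receptors stood at 3.77% and all genes at 27.2%, and at 100 kb at 67.9% and 74.3%.

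The regions near the receptor genes were divided by where they lay. Of the 89 Otp regions within 100 kb, 50 lay within 1 kb of an end of another protein-coding gene (56.2%). For 12, no protein-coding gene end was nearer than that of a receptor gene, and 27 were others. Non-coding genes were not counted here, and the Crhr1 region among the 12 lay 621 bp from an end of Gm35469. Of all nuclear Otp regions, 48.7% lay at an end of any protein-coding gene. The 56.2% leaves out the regions at Oxtr and Sstr4, and with that difference in definition it is near the share of the whole list. The 50 regions at neighbours had a median of 19.5 tags (9 to 54). The 12 regions nearest to a receptor gene had a median of 10 tags (8 to 12, 11 with a pileup). The medians were 13 tags over all nuclear Otp regions and 15 over those at gene ends. Of the 12, only those at Oxtr and Sstr4 lay at a protein-coding gene end, so these are unlike sets. The 27 others, all away from such ends, had a median of 14 tags (7 to 40, 26 with a pileup). No median was taken over all Otp regions away from gene ends, so whether low pileups are particular to receptor genes was not tested. Scaled to the IgG library, the 12 nearest to a receptor gene corresponded to at most 2.05 tags, and the weakest IgG region had 4. Of the 50 at neighbours, 14 scaled to at least 4 tags. None of the 89 regions overlapped an IgG region, which follows from the absence of IgG summits within 100 kb, whereas 2.29% of all nuclear Otp regions did (95% exact binomial interval 2.02 to 2.58%).

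**Figure D4:**
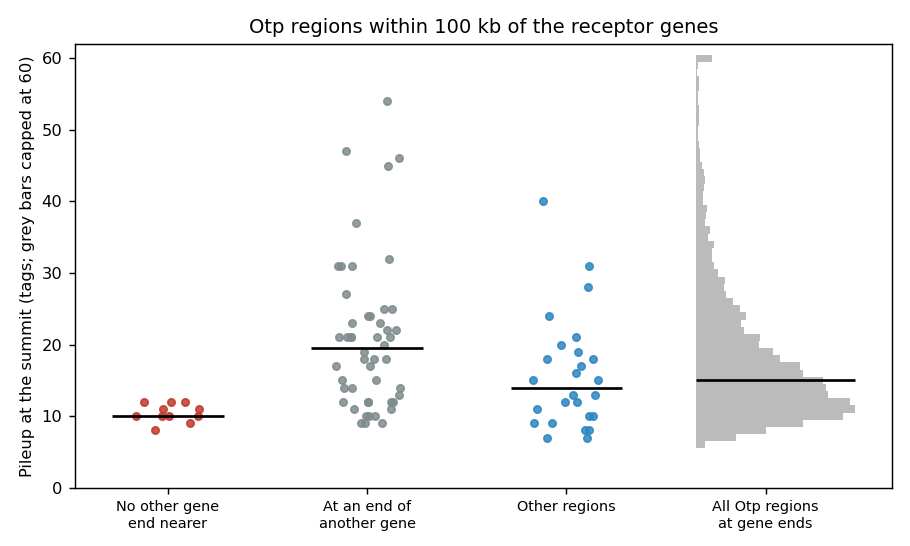
The y axis is the pileup at the summit in tags, worked out from the deposited values. Points are Otp regions within 100 kb of the receptor genes. They are split into those with no other protein-coding gene end nearer, those at an end of another protein-coding gene and the rest. The grey histogram gives all Otp regions at gene ends (60 stands for 60 or more), and black lines are medians. Regions nearest to a receptor gene lie between 8 and 12 tags, whereas those at neighbours reach 54 and the rest reach 40.

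Gipr, the receptor for the gut hormone GIP, had the most Otp regions within 100 kb, with 10, and 9 of them were at ends of other genes. The closest was 5676 bp away, near Eml2, and the strongest had 47 tags and lay at Opa3. Kiss1r, the kisspeptin receptor that controls reproduction, had 6, of which 5 were at ends of other genes. Trhr2, Oprd1, Galr3 and Nmur1 had 4 each, and at Trhr2 and Galr3 all 4 lay at ends of other genes. Gipr and Kiss1r also had the most neighbours among the receptors, with 13 and 16 other protein-coding genes within 100 kb. The 17 receptor genes with no Otp region within 100 kb had a median of 1 such neighbour (0 to 6), against 3 for the 36 genes with one. These 17 were Mc2r, Avpr1a, Ghrhr, Sstr1, Sstr3, Npy1r, Npy2r, Npy5r, Oprk1, Glp1r, Cckar, Ghsr, Calcr, Hcrtr2, Tacr3, Ntsr1 and Npffr2.

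The strongest regions in these neighbourhoods lay at or inside other genes. A region of 54 tags (fold enrichment 12.9) lay 208 bp from an end of Srgap2 and 71375 bp from Avpr1b, a pituitary vasopressin receptor. One of 46 tags lay at Ankrd54, 19575 bp from the galanin receptor gene Galr3, and one of 45 tags at Fam160a2, 25272 bp from the cholecystokinin receptor gene Cckbr. The highest fold enrichment, 27.1 with 40 tags, was inside Greb1, 87643 bp from Ntsr2, a neurotensin receptor.

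Of the 9 genes for receptors of oxytocin, vasopressin and the hypothalamic releasing hormones, Oxtr alone had a region at an end. The share over all protein-coding genes was 27.2%, and a count from 9 genes is too small to set this group apart from it. Avpr1a, the vasopressin receptor of brain and vessels, had its nearest Otp summit at 351103 bp, and Avpr1b at 43793 bp. Crhr2, which answers the urocortins, was 70318 bp from its nearest summit, which lay at Mindy4. Trhr, the receptor for thyrotropin-releasing hormone, had a region of 8 tags at 25024 bp to which it was the nearest gene. At the second thyrotropin-releasing hormone receptor gene Trhr2 the nearest summit was 13209 bp away and lay at Zc3h18. Gnrhr, the pituitary receptor for gonadotropin-releasing hormone, was 7874 bp from a region at Uba6. For Ghrhr, the growth hormone-releasing hormone receptor, the nearest was at 101457 bp, and it was the region inside Adcyap1r1.

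Of the 6 receptor genes for gut and metabolic peptides, 2 (Gipr and Cckbr) had an Otp region within 100 kb, and of the 3 for neuropeptide Y none did, against 74.3% of all genes. The neuropeptide Y receptor genes had their nearest summits at 153332 bp (Npy1r), 172038 bp (Npy5r) and 180397 bp (Npy2r). Npy1r and Npy5r are neighbours on chromosome 8 and share that nearest region, which lies at Naf1, so they are not separate observations. Glp1r, the GLP-1 receptor, had its nearest summit at 289180 bp, Ghsr, the ghrelin receptor, at 161391 bp, Calcr, the calcitonin receptor, at 130957 bp, Cckar at 108164 bp, Cckbr at 25272 bp and Gipr at 5676 bp. Of the orexin receptor genes, Hcrtr2 had its nearest at 541762 bp, the greatest distance of the 53, and Hcrtr1 at 22691 bp. Mchr1, the receptor for melanin-concentrating hormone, had a region of 11 tags at 19542 bp to which it was the nearest gene.

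The melanocortin receptor genes Mc1r (pigment cells), Mc2r (the ACTH receptor of the adrenal) and Mc5r (exocrine glands) had their nearest summits at 33438, 106609 and 36454 bp. Mc2r and Mc5r lie close together on chromosome 18 and share the same nearest region, at Fam210a. Of the somatostatin receptor genes other than Sstr4, Sstr2 was 58122 bp, Sstr5 64504 bp, Sstr3 160646 bp and Sstr1 313434 bp from the nearest summit. The opioid receptor genes ranged from 21440 bp at Oprd1 to 505420 bp at Oprk1, the kappa receptor, with Oprl1, the nociceptin receptor, at 45803 bp. The galanin receptor genes were at 51495 bp (Galr2), 55479 bp (Galr1) and 11045 bp (Galr3), and Kiss1r at 8313 bp.

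The 8 genes for receptors of tachykinins, neurotensin, bombesin-like peptides and neuromedin U were 21136 bp (Tacr2) to 199018 bp (Tacr3) from the nearest summit. Nmur2, through which neuromedin U reduces feeding, was the nearest gene to 2 regions of 11 and 12 tags, at 23443 and 67110 bp. Tacr3, the neurokinin B receptor, was also the nearest gene to its own nearest region despite the distance. The VIP receptor genes Vipr1 and Vipr2 were at 37301 and 29759 bp, Prlhr, the prolactin-releasing peptide receptor, at 28372 bp, and Npffr2 at 536476 bp. The prokineticin receptor genes Prokr1 and Prokr2 were at 81469 and 53492 bp.

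The lists of related genes, 3 in number, were counted in the same way. Of the genes for peptide precursors of these receptors, 3 of 45 had an end with an Otp region (6.67%, against 22.4% expected from length). They were Agrp, the melanocortin antagonist, with a fold enrichment of 10.2 and 27 tags, Trh with 8.01 and 12 tags, and Nmb with 5.87 and 12 tags. The regions of Agrp and Nmb lay nearer to other genes, 98 bp from Atp6v0d1 and 2 bp from Wdr73. Of 36 genes for amine receptors, 0 had one (27.3% expected from length). These are G protein-coupled receptors of dopamine, serotonin, noradrenaline, acetylcholine and histamine, with the trace amine receptor gene Taar1 added.

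The last list, called signal transducers here, held proteins that carry or regulate the receptors' signals, with receptor accessory proteins among them. Of 50 genes for G protein subunits, adenylyl cyclases, phospholipases, receptor kinases, arrestins and their partners, 20 had one (40%, against 30.7% expected from length). The highest were Grk4, a receptor kinase, with a fold enrichment of 18.2 and 53 tags, Gng7, a G protein gamma subunit, with 16.9 and 47 tags, Gna12 with 16.1 and 51 tags, and Grk6 with 11.6 and 35 tags. The others were Gnal, Gnaq, Gna11, Gnai2, Gnaz, Gnb1, Gnb2, Gng3, Plcb1, Grk5, Arrb2, Rgs2, Rgs4, Rgs9, Prkaca and Creb1. Their fold enrichments ran from 4.22 at Gnaq, the subunit to which the oxytocin receptor couples, to 11.2 at Prkaca, a catalytic subunit of protein kinase A. The difference between receptors and transducers was not tested, since members of a list are not replicates of a library.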

How the data were processed

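Each sample has 1 peak list in narrowPeak layout, called per sample by the authors. The submitters' processing notes name build mm10 and the tools MACS2, Bowtie2, Trimmomatic, SAMtools and Picard. Their settings, the treatment of duplicates and any control used in calling were not given in the sources used here. The authors' deposited values are a fold enrichment (a ratio), a −log10 p and a −log10 q for each region. The deposited display score was not used.

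Pileups were solved from the deposited fold and −log10 p as MACS2 defines them, accepting a whole number that matched the −log10 p within 0.001 where no other whole number came within 0.005. This gave 11182 Otp and 262 IgG pileups. The background of a library was taken as the smallest local background that 3 or more of its regions have in common. No read totals are in the lists, so total depth is unknown. Poisson and exact binomial intervals (95%) cover counting error only, since amplified reads are not independent molecules.

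Positions of genes were taken from RefSeq GRCm38.p6, the assembly that mm10 denotes, and strands and starts from RefSeq promoter sequences. Genes were counted when a summit lay within 1 kb, or within 100 kb, of either end. Nearest genes are the nearest protein-coding genes. Expected shares are those of all protein-coding genes in the member's own decile of length, with no random draws. Exons and introns were not analysed here. The peak lists were overlapped by at least 1 bp with bedtools 2.31.1. Counting and pileups were tested on simulated data. The members and lists were chosen with earlier results of these data known. Genes named are those with a region at an end, inside or nearest to them, those with the most or no regions within 100 kb, and in related lists the 4 highest by fold with values. Distances of other members are given outside that rule. Neighbouring genes, the TAAT search, the upstream stretches and the CpG classes were chosen after the values were seen. Alternatives were other windows, thresholds, length bins and overlap rules. Python 3.11.15, numpy 2.4.6, pandas 2.3.3 and scipy 1.17.1 were used.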

Additional observations from a re-analysis of the deposited data

How the results depend on the processing

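Of 52 alternative values, 38 stayed within 1.5 times the reported one. Some of these are counts of 0 that could not change, so the 38 overstate how stable the results are. They are the IgG counts, the overlap with IgG regions, and the amine receptor counts under narrower or stricter rules. Within 500 bp of an end, 1 of 53 receptor genes (Oxtr) and 0 of 45 peptide precursor genes had an Otp region, against 25.1% of all protein-coding genes. Within 5 kb, 9 of 45 precursor genes and 3 of 36 amine receptor genes had one, against 34.4% of all protein-coding genes. At a −log10 q of at least 10, counts at gene ends were 0 for the receptors, 1 for the precursors and 8 for the transducers. No share of all genes is given at that threshold, so these 3 counts cannot be set against a background. At the same threshold 21 receptor genes had one of 38 regions within 100 kb, and 0 regions lay inside receptor genes. A −log10 q of at least 5 left 5 regions inside them. These counts have no share of all genes beside them either. The median −log10 q over all nuclear Otp regions was 7.69, so a threshold of 10 removes most regions of the whole list. Only 1 precursor gene had a region at an end with no nearer end of another protein-coding gene. The share of all genes under that rule was not computed. Within 50 kb there were 46 regions, and 39 of those within 100 kb remained without regions at ends of other genes. The expected count at receptor gene ends was 14.4 to 15.5 under other length bins or none. The CpG classes, added after seeing the data, gave 11.8 and 12.1 against 11.5 from length. At regions of few tags the comparison with IgG is limited by its low background, and the depth of both libraries is unknown. No paired analysis was possible because each antibody has 1 library, which also means that none could be left out.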
